A study of Mus musculus with 44 samples.

Results

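The urea cycle genes described here are 8 listed genes of the 38202 in the deposited tables, followed in the livers and skeletal muscles of WT mice and Slc16a13 knockouts (KO). They were chosen by name and function, and all 8 symbols matched a gene identifier in the tables. They comprise the enzymes Cps1 (ENSMUSG00000025991), Otc (ENSMUSG00000031173), Ass1 (ENSMUSG00000076441), Asl (ENSMUSG00000025533) and Arg1 (ENSMUSG00000019987), the cofactor-producing enzyme Nags (ENSMUSG00000048217) and the mitochondrial carriers Slc25a15 (ENSMUSG00000031482) and Slc25a13 (ENSMUSG00000015112).

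The urea cycle turns toxic ammonia from amino acid breakdown into urea, and the complete cycle runs in hepatocytes, mostly those around the portal vein. Nags makes N-acetylglutamate, the obligate activator of Cps1, and Cps1 and Otc work inside mitochondria, whereas Ass1, Asl and Arg1 work in the cytosol. Slc25a15 carries ornithine into mitochondria in exchange for citrulline, and Slc25a13 (citrin) exports the aspartate that Ass1 joins to citrulline.

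Bulk poly(A) RNA was sequenced from 11 WT and 11 KO males, with a liver and a skeletal muscle library from each mouse, 44 in all. The mice were on a C57BL/6N background, were fed high-fat diet (HFD) for 15 weeks and were 20 weeks old. The paper gives an overnight fast before killing as its default. The KO allele was a constitutive CRISPR/Cas9 deletion of the proximal promoter and first exons of Slc16a13, which encodes a lactate transporter, and was not restricted to liver. WT littermates and KO mice both received HFD, so the diet itself was not compared.

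Library totals ranged from 20150712 to 35218243 reads counted on genes. Slc16a13 itself had 99 to 302 reads in WT livers and 0 to 8 in KO livers. In muscle it had 4 to 22 reads in WT libraries and 11 to 40 in those labelled KO. These counts do not bear out the label, and the latter are called the muscle libraries labelled KO. Where in the gene these few reads lie was not examined. The paper reports the deletion by qRT-PCR across the deleted exon junctions in multiple tissues. In 4 KO livers (mice 532, 583, 602 and 611) long genes were under-represented relative to the other livers. For each liver, log2 CPM (reads scaled to library size) minus the gene's mean over all 22 livers was regressed on log2 gene length. The slope was -0.54, -0.25, -0.42 and -0.08 in these 4, against 0.04 to 0.10 in WT livers. Slopes and the cut at 0 are thus relative to a mean that includes the 4 livers. The summed CPM of 10 hepatocyte markers was 92278 to 124140 in WT livers and at most 12.6 in any muscle library, as the tissue labels say. Libraries were pooled for sequencing in sets whose members were not given in the sources used here, so a pool and a group cannot be told apart.

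In WT liver, the 8 genes spanned a wide range of levels. Expression per gene length is given as RPKM (reads scaled to gene length and library size), as deposited. Arg1, which releases urea from arginine, had 588 RPKM in the lowest WT liver, a median of 734 and 823 in the highest. Ass1, which makes argininosuccinate, had 531, 645 and 893 RPKM, and Cps1, which fixes ammonia, had 400, 521 and 655 RPKM. These were the most abundant members, and their ranges overlapped.

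Asl, which splits argininosuccinate, had 308, 377 and 473 RPKM in the lowest, median and highest WT liver. Otc, which makes citrulline, had 188, 196 and 232 RPKM. Slc25a15 had 91.1, 114 and 143 RPKM, and Slc25a13 had 87.3, 99.5 and 109 RPKM. Nags was the lowest at 31.2, 35.6 and 40.3 RPKM, with every WT liver below the lowest value of any other member.

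The order by mean level in WT liver was therefore Arg1, Ass1, Cps1, Asl, Otc, Slc25a15, Slc25a13 and Nags. Of the 7 neighbouring pairs, 6 differed by an exact two-sided paired permutation test over 11 mice on log2(RPKM + 0.1), with Benjamini-Hochberg adjustment over the 7 pairs. Arg1 exceeded Ass1 in 9 of 11 mice, and this step did not pass the threshold (mean log2 difference 0.12, SD 0.19, adjusted p = 0.0596 by the exact permutation test). Slc25a15 exceeded Slc25a13 in 9 of 11 mice (mean log2 difference 0.21, SD 0.25, adjusted p = 0.0308 by the same exact test). Together the 8 genes took 0.555% to 0.791% of the reads of a WT liver.

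**Figure D1:**
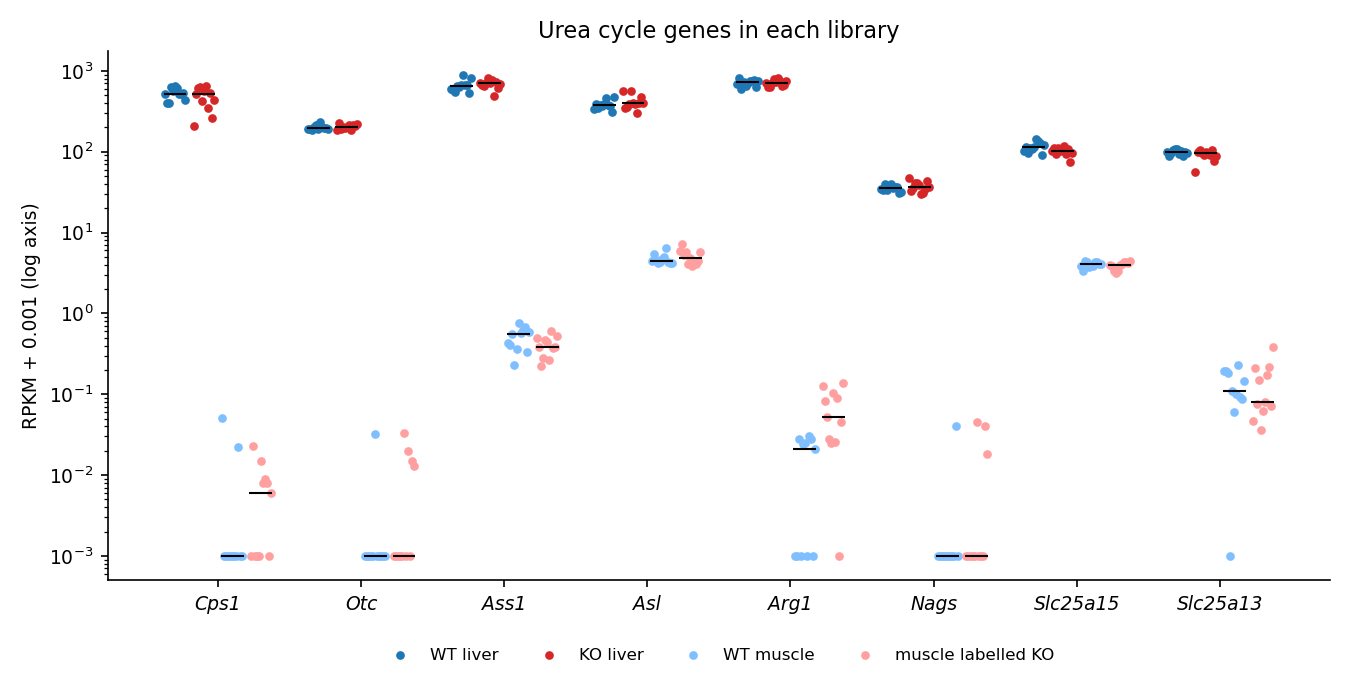
RPKM + 0.001 on a log axis for each urea cycle gene in every library, with 1 point per mouse and a black line at the median of 11 mice. Liver points of both genotypes lie together far above the muscle points, where Asl and Slc25a15 lie between 3.17 and 7.19 RPKM and Cps1, Otc and Nags lie at 0 in most libraries.

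Ass1 has a near-identical copy, so some reads may fit both genes. The processed pseudogene Gm5424 (ENSMUSG00000046687) matched an Ass1 transcript at 99.5% identity over 1240 bases in the GENCODE transcripts of GRCm38. In WT livers, Gm5424 was given 666 to 1537 reads and held 2.90% to 3.31% of the reads counted on either gene. How the authors' counting divided reads between them is not given in the sources used here. Reads that fit both genes equally may be counted on neither, so that share does not bound the uncertainty in the level of Ass1. Nags overlaps the antisense gene Gm11586, which had 6 to 21 reads in WT livers, against 1233 to 1918 for Nags. The kit marked strand, and whether the counting used it was not stated.

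The WT livers differed from each other most in Cps1. The coefficient of variation of CPM over 11 WT livers was 19.7% for Cps1, 16.6% for Ass1, 13.4% for Slc25a15 and 13% for Asl. It was 10.05% for Nags, 9.79% for Slc25a13, 9.11% for Arg1 and 8.68% for Otc, which lay nearer to the median of 7.86% over the 2607 genes with a mean of at least 50 CPM. Cps1 was above 90.5% of those genes in this measure and Otc above 56.7%.

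Some members rose and fell together from one WT liver to the next. Of 28 pairs, 24 had a positive Pearson r of log2 CPM, and 3 passed the threshold for Pearson's r as well as for Spearman's rho, with Benjamini-Hochberg adjustment over the 28 pairs (two-sided permutation tests, 100000 resamples). Ass1 and Asl, which catalyse consecutive steps, had the closest relation (r = 0.91, raw permutation p = 0.00021, adjusted p = 0.00588, and rho = 0.92, raw p = 0.00023, adjusted p = 0.00644), and r was 0.79 without the 2 livers farthest from the median of Ass1. Ass1 and Slc25a15 had r = 0.81 (raw permutation p = 0.00236, adjusted p = 0.0330) and rho = 0.80 (raw p = 0.00442, adjusted p = 0.0413), with r = 0.83 without 2 livers. The mitochondrial enzymes Cps1 and Otc had r = 0.78 (raw permutation p = 0.00469, adjusted p = 0.0438) and rho = 0.86 (raw p = 0.0012, adjusted p = 0.0168), with r = 0.67 without 2 livers. CPM values of a library share its depth and scaling, so the pairs are not independent of each other. The share of such pairs among other genes was not computed, so the counts are not read as particular to the members.

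**Figure D2:**
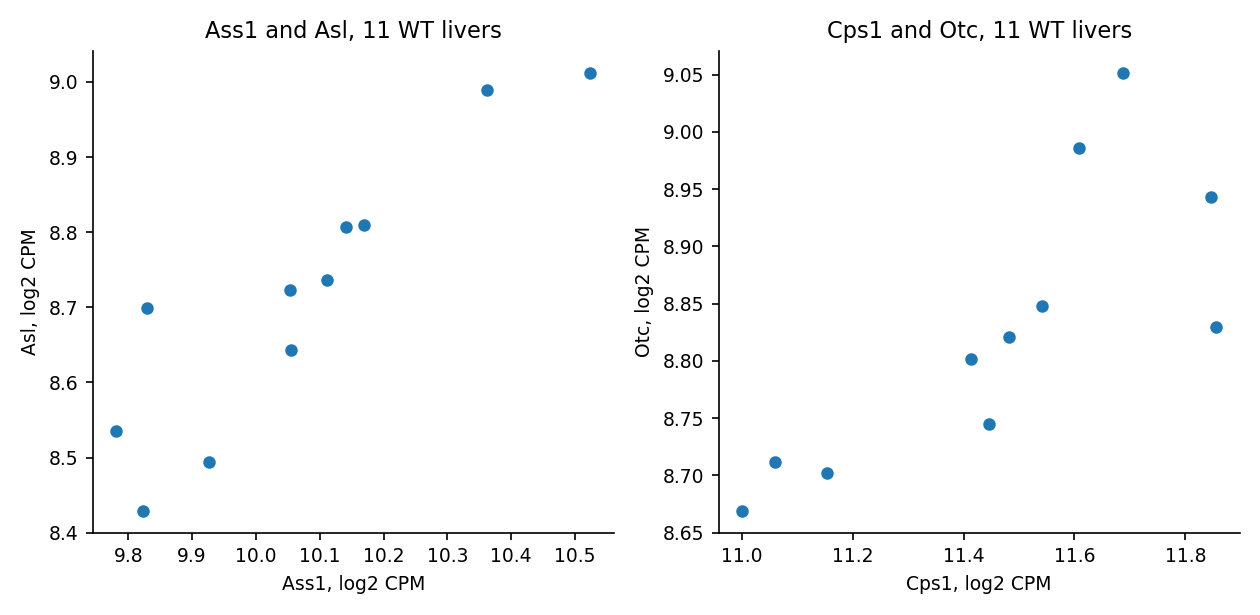
Log2 CPM of Ass1 against Asl (left) and of Cps1 against Otc (right), 1 point per WT liver. Asl was high where Ass1 was high (r = 0.91) and Otc was high where Cps1 was high (r = 0.78).

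Outside the 8 genes, the closest profile to Ass1 over the 11 WT livers was that of its copy Gm5424 (r = 0.97), followed by Cox18 (r = 0.89). The nearest genes were Dbt and Srsf10 for Cps1 (both r = 0.96), Ndrg2 and C8g for Otc (r = 0.93 and 0.92), and Fn3krp for Asl (r = 0.96), for which Gm5424 came next (r = 0.89). For Arg1 they were Uxs1 and Uty (both r = 0.86), and for Nags they were Cep170b and Wiz (r = 0.92 and 0.91). For the carriers they were Cox18 and Kcnn1 with Slc25a15 (r = 0.93 and 0.89), and Cct5 and Ubr2 with Slc25a13 (r = 0.98 and 0.95). These are the highest of 9119 genes, over 11 points that share library and depth, and are given as a description.

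In skeletal muscle of WT mice, the cycle was incomplete at the transcript level. Cps1, Otc, Arg1 and Nags had 9, 2, 6 and 2 reads in all 11 WT muscle libraries together. Asl and Slc25a15 were clearly read, and Ass1 and Slc25a13 were read at a low level. Between WT liver and WT muscle, all 8 members were higher in liver by the quasi-likelihood test of edgeR at an adjusted p (Benjamini-Hochberg) under 0.05, where 45.5% of the 13907 genes tested were also higher in liver. Of the 8, 7 had a log2 fold change of at least 5 (7.08% of all genes tested) and 6 one of at least 9 (3.34%). Cps1, Otc, Arg1, Nags and Slc25a13 passed the filter on low counts only through liver, where they are high, so that these 5 had to differ and the counts over the 8 are given as a description. Ass1, Asl and Slc25a15 also passed it in muscle alone. In bulk tissue, fewer cells that express a gene and less RNA of it per cell cannot be told apart.

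Cps1 had 53162 to 93289 reads in WT livers and 0 to 6 in WT muscles. All 9 of its muscle reads came from 2 mice, and the groups did not overlap. The ratio of the summed reads, each over its library totals, was 94362 (95% counting interval 49708 to 206364), and the log2 fold change was 16.36 (standard error 0.30, edgeR adjusted p = 1.38e-25).

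Arg1 had 20677 to 37222 reads in WT livers and 0 or 1 in each WT muscle, a ratio of 51284 (interval 23562 to 139747). Otc had 9531 to 14845 reads in WT livers and 2 reads in a single muscle library (ratio 67934, interval 18806 to 560959). Nags had 1233 to 1918 reads in liver and likewise 2 reads in 1 muscle library (ratio 9305, interval 2575 to 76838). For these genes the fitted fold change rests on few muscle reads, and the intervals cover counting error only. The intervals of Cps1, Otc and Arg1 overlap, so their order is not resolved.

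Slc25a13 had 6460 to 9982 reads in WT livers and 0 to 15 in WT muscles, a ratio of 849.9 (interval 701 to 1040). Ass1 had 21866 to 46906 reads in liver and 9 to 34 in muscle, a ratio of 1339 (interval 1181 to 1524). Both were thus present in nearly every muscle library, at a level far below that of liver.

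Asl had 8675 to 18112 reads in WT livers and 96 to 171 in WT muscles, a ratio of 93.5 (interval 88.7 to 98.7) and a log2 fold change of 6.57 (standard error 0.09, edgeR adjusted p = 1.77e-28). Slc25a15 differed least, with 7758 to 13968 reads in liver and 285 to 476 in muscle, a ratio of 28.6 (interval 27.7 to 29.5) and a log2 fold change of 4.86 (standard error 0.08, edgeR adjusted p = 5.59e-27). The groups did not overlap in either gene. For every member the interval of the ratio covers counting error only and leaves out the spread between mice.

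The order of levels in WT muscle accordingly differed from that in liver. Asl led at a median of 4.44 RPKM (4.15 to 6.49), then Slc25a15 at 4.04 (3.30 to 4.45), Ass1 at 0.548 (0.228 to 0.749) and Slc25a13 at 0.108 (0 to 0.232). Of 7 neighbouring pairs, 4 differed by the exact paired permutation test. Among Arg1, Cps1, Nags and Otc, the last 4, no neighbouring pair passed the test. For Asl over Slc25a15 the adjusted p was 0.00684 by the exact permutation test on the deposited RPKM, and 0.451 by the same test on CPM per kilobase of 1 implied length, since reads and RPKM of Asl implied a length of 878 to 1219 bases in different muscle libraries.

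The paralogues of the members that serve other tissues were examined next. Slc25a12 (aralar), the second aspartate-glutamate carrier, ran opposite to Slc25a13. It had 7.09 to 12.8 RPKM in WT livers and 200 to 238 RPKM in WT muscles, with no overlap, and its log2 fold change of -4.50 (standard error 0.07, edgeR adjusted p = 4.87e-27) was in favour of muscle. Arg2, the mitochondrial arginase, had 70 reads over the 11 WT livers and 18 over the 11 WT muscles. Slc25a2, a further ornithine carrier, had 30 reads in liver and 99 in muscle. Neither passed the filter on low counts, so neither was tested.

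**Figure D3:**
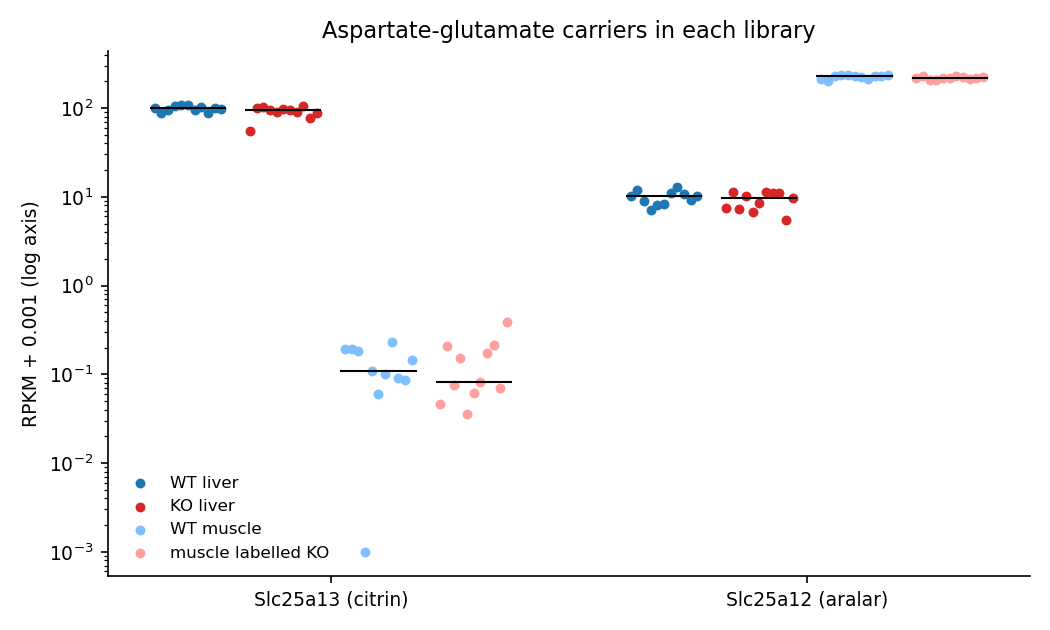
RPKM + 0.001 on a log axis of the aspartate-glutamate carriers Slc25a13 and Slc25a12 in every library, with 1 point per mouse and a black line at the median. Slc25a13 is the higher of the pair in every liver and Slc25a12 in every muscle.

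The regions upstream of transcription starts are shown for Otc, Nags and Slc25a13, which were high in liver and at or near 0 in muscle, and whose windows overlap no annotated exon. RefSeq entries were present for 5 of the 8 members (Otc, Ass1, Nags, Slc25a15 and Slc25a13). Each sequence is the 250 bases before the start on the gene's strand, build GRCm38.p6, at chrX:10252055-10252304 (plus strand) for Otc, chr11:102145263-102145512 (plus strand) for Nags and chr6:6217174-6217423 (minus strand) for Slc25a13. Capitals mark matches on either strand to TATAAA, the TBP motif, to GGGCGG, the GC box, to TTNNGNAA, the C/EBP motif, or to CAAAGTCCA, the HNF4A motif.
Otc: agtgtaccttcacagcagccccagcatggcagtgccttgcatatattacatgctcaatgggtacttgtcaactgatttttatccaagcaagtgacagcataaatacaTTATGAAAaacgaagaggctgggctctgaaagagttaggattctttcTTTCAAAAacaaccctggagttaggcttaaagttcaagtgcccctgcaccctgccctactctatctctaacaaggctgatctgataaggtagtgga
Nags: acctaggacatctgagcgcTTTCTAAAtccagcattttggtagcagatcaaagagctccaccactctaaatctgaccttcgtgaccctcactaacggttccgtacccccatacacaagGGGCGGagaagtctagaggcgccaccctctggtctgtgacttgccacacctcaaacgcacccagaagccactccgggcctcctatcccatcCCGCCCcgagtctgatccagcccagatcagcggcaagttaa
Slc25a13: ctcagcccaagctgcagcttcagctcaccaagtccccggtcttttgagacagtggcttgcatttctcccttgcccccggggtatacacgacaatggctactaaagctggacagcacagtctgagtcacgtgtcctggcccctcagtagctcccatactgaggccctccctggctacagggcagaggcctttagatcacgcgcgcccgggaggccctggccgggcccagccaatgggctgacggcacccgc

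Otc held 2 C/EBP matches and no GC box, Nags held 1 C/EBP match and 2 GC boxes, and Slc25a13 held no match to any of the 4 motifs. In windows of the same length before 32851 RefSeq starts, 36.8% held a C/EBP match, 32.7% a GC box, 12.4% the TBP motif and 0.384% the HNF4A motif. The GC content was 43.6% for Otc, 55.6% for Nags and 62.8% for Slc25a13, against a median of 52.4%. A match is a description of letters and not a binding site.

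The genes around the cycle were compared between the tissues by list. All 22 genes of amino acid catabolism were higher in WT liver than in WT muscle, at a median log2 fold change of 13.35, with Mat1a (17.54), which makes S-adenosylmethionine, and Bhmt (16.51), which remethylates homocysteine, at the top. Only 4 of the 22 passed the filter on low counts in muscle alone. Of 14 genes that supply or bind ammonia and glutamate, 11 were higher in liver and 2 lower. Car5a, the mitochondrial carbonic anhydrase that supplies bicarbonate to Cps1, was higher by 12.79 on the log2 scale and Gls2, the liver glutaminase, by 11.29.

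Genes that use arginine and ornithine were split, with 9 of 16 higher in liver and 7 lower. Agmat, an agmatinase-family enzyme, was higher in liver by 13.58 on the log2 scale, and Nos1, the nitric oxide synthase of muscle and nerve, had a log2 fold change of -10.63. Of 11 regulators, 9 were higher in liver and 2 lower, with Hnf4a (16.62) and Creb3l3 (13.46), both transcription factors of hepatocytes, at the top. These calls come from edgeR with adjusted p under 0.05, which 91% of all genes passed in 1 direction or the other. Mat1a, Bhmt, Car5a, Gls2, Agmat, Hnf4a and Creb3l3 passed the filter on low counts only through liver, and Nos1 only through muscle. Genes that passed only through the tissue where they are high had to differ, so the list counts are given as a description.

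Between KO and WT livers, none of the 8 urea cycle genes passed the test. By edgeR's quasi-likelihood test 0 of 8 passed an adjusted p of 0.05, and 0 of 8 had an unadjusted p under 0.05. DESeq2 and limma-voom also called 0, and 0 at an unadjusted p. Over all 13005 genes tested, 0.0231% were called (0.0154% higher and 0.00769% lower in KO livers) and 12.9% had an unadjusted p under 0.05. The members' median log2 fold change was 0.08, against -0.01 over all genes tested, with 5 members at a positive and 3 at a negative value.

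Cps1 had 209 RPKM in the lowest KO liver, a median of 515 and 654 in the highest, against 400 to 655 in WT. The groups overlapped, and the 3 KO livers below every WT liver were those of mice 532, 602 and 597, at 209, 259 and 344 RPKM. The log2 fold change was -0.11 (standard error 0.16, edgeR adjusted p = 0.689), with a 95% interval of -0.43 to 0.20. Mice 532 and 602 were among those with few reads on long genes, whereas the slope of mouse 597 was 0.09.

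Mouse 597 also held the lowest Ass1 (482 RPKM) and Asl (303 RPKM) of all 22 livers. Its Otc was low in its group, at 186 RPKM, and its Arg1 lay within the WT range at 751 RPKM. It was chosen after its values were seen.

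Asl had 303 RPKM in the lowest KO liver, a median of 399 and 562 in the highest, against 308 to 473 in WT. The KO livers above every WT liver were those of mice 532 and 583, at 559 and 562 RPKM, and both belong to the 4 with few reads on long genes. The log2 fold change was 0.19 (standard error 0.11, edgeR adjusted p = 0.407), with a 95% interval of -0.04 to 0.41.

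Nags had 29.7, 36.5 and 47.8 RPKM in the lowest, median and highest KO liver. Of the 4 KO livers above every WT liver, 3 belonged to those with few reads on long genes. The log2 fold change was 0.13 (standard error 0.09, edgeR adjusted p = 0.433).

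The medians of both carriers were below those of WT. Slc25a15 had 75.5, 101 and 116 RPKM in the lowest, median and highest KO liver, with a log2 fold change of -0.12 (standard error 0.07, edgeR adjusted p = 0.399). Slc25a13 had 55.7, 95.4 and 105 RPKM, with a log2 fold change of -0.09 (standard error 0.09, edgeR adjusted p = 0.561). Both groups overlapped, and the lowest values belonged to mouse 602 for Slc25a15 and mouse 532 for Slc25a13.

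Otc had 186, 204 and 224 RPKM in KO livers and a log2 fold change of 0.09 (standard error 0.06, edgeR adjusted p = 0.408). Ass1 had 482, 704 and 814 RPKM and a log2 fold change of 0.13 (standard error 0.10, edgeR adjusted p = 0.463). With the reads of Gm5424 added to Ass1, the value stayed at 0.13 (adjusted p = 0.456 from edgeR). Arg1 had 623, 717 and 805 RPKM, within the WT range in every KO liver, and a log2 fold change of 0.06 (standard error 0.06, edgeR adjusted p = 0.575).

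In KO livers the order of mean levels was that of WT livers. There Arg1 over Ass1 (6 of 11 mice) and Cps1 over Asl (8 of 11 mice) each had an adjusted p of 0.583 by the exact paired permutation test, and the mean log2 difference of Cps1 over Asl was 0.12 with an SD of 0.72. The 8 genes together took 0.505% to 0.778% of the reads of a KO liver, overlapping the WT range.

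**Figure D4:**
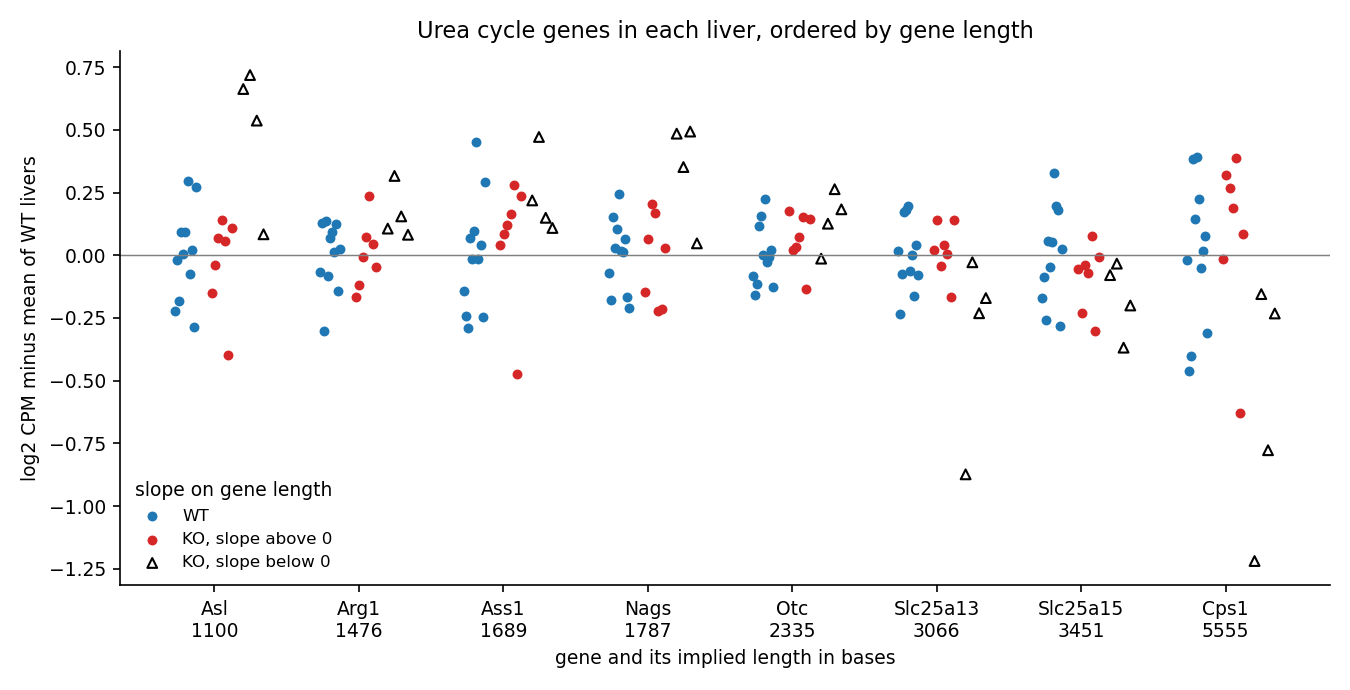
Log2 CPM of each urea cycle gene minus the mean of the 11 WT livers, 1 point per liver, with genes ordered from the shortest to the longest. Triangles are the 4 KO livers with a slope below 0, which lie high for Asl and Nags and low for Slc25a13 and Cps1.

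The members with a negative difference were the 3 longest. The length implied by reads and RPKM together was 3066 bases for Slc25a13, 3451 for Slc25a15 and 5555 for Cps1. It was 1476 bases for Arg1, 1689 for Ass1, 1787 for Nags and 2335 for Otc, while Asl was shorter still, and these 5 had a positive difference. Without the 4 KO livers with a slope below 0, the log2 fold change was 0.09 for Cps1, 0.02 for Slc25a13 and -0.10 for Slc25a15. It was -0.03 for Asl, -0.01 for Nags, 0.00 for Arg1, 0.07 for Ass1 and 0.07 for Otc. No member was called, and the members' median was 0.01.

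With the dependence on gene length removed from every library instead, the log2 fold change was 0.06 for Cps1, 0.04 for Asl, -0.02 for Slc25a13 and -0.01 for Slc25a15. Of the 4 livers, that of mouse 532 also held 1203 CPM of 7 macrophage markers summed, against 288 to 386 CPM in WT livers. All 7 macrophage markers had a positive log2 fold change in KO livers (median 0.55), 5 of them at an unadjusted p under 0.05. The summed CPM of the 10 hepatocyte markers was 102178 to 155264 in KO livers, with 10 of 10 positive and 4 at an unadjusted p under 0.05. Without the 4 livers, 0 of the 7 and 0 of the 10 had such a p, while over all genes the number with such a p went from 1675 of 13005 to 179 higher and 212 lower of 13210. Their part in the members' values was not tested.

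**Figure D5:**
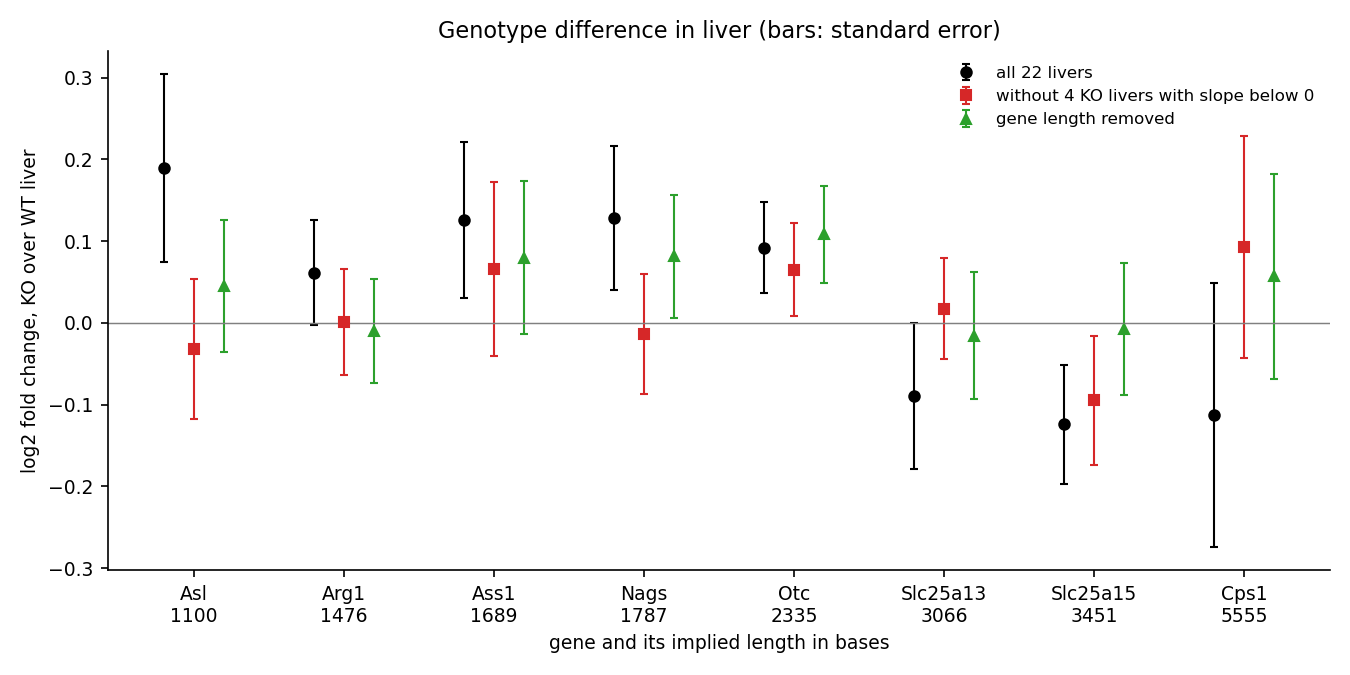
Log2 fold change of KO over WT liver for each urea cycle gene, ordered by implied gene length, with bars of 1 standard error. Black circles use all 22 livers, red squares leave out the 4 KO livers with a slope below 0, and green triangles remove gene length. Cps1 moves from -0.11 to 0.09 and Asl from 0.19 to -0.03 when the 4 livers are left out.

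The related lists held no called gene in this comparison by edgeR, DESeq2 or limma-voom. Of the 22 genes of amino acid catabolism, 5 had an unadjusted p under 0.05 by edgeR, 5 by DESeq2 and 4 by limma-voom, and all 5 of edgeR's were higher in KO livers. Over all genes tested the share was 12.9%, with 1272 genes higher and 403 lower at that p. At any p, 6363 genes were higher and 6642 lower, so the excess of higher values lay among genes with a small p. The smallest p belonged to Haao (log2 fold change 0.47, standard error 0.15), Hpd (0.33, standard error 0.11) and Fah (0.24, standard error 0.08), enzymes of tryptophan and tyrosine breakdown, each with an edgeR adjusted p of 0.382. Without the 4 livers 0 of the 22 had an unadjusted p under 0.05, where 179 genes of all 13210 tested were higher and 212 lower at that p, and the values were 0.27, 0.16 and 0.07. Among ammonia and glutamate genes 0 of 14 reached an unadjusted p under 0.05, and the smallest belonged to Glul (-0.18), Gpt2 (-0.14) and Sirt3 (0.11).

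Among arginine and ornithine genes 0 of 14 reached an unadjusted p under 0.05 by edgeR and 2 by DESeq2. Agmat (0.26), Slc25a29 (0.30) and Azin1 (-0.18) were nearest. Among 11 regulators 1 did, Creb3l3, a factor of fasting metabolism, at a log2 fold change of 0.22 (standard error 0.10, edgeR adjusted p = 0.382), and DESeq2 gave 2. The next were Gcgr (0.20), the glucagon receptor, and Nr3c1 (-0.21), the glucocorticoid receptor. Without the 4 livers Creb3l3 was at 0.04.

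In muscle, no member that could be tested passed between the libraries labelled KO and the WT libraries. Ass1, Asl and Slc25a15 passed the filter on low counts, 3 of 8, and 0 of these 3 were called by edgeR, DESeq2 or limma-voom, with 0 at an unadjusted p under 0.05 by each. Over all 13266 genes tested, 0.00754% were called and 8.64% had an unadjusted p under 0.05. Ass1 had 0.224, 0.387 and 0.597 RPKM in the lowest, median and highest library labelled KO, within the WT range but for the lowest, and a log2 fold change of -0.32 (standard error 0.18, edgeR adjusted p = 0.641).

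Asl had 3.87, 4.80 and 7.19 RPKM in the libraries labelled KO, with a log2 fold change of 0.07 (standard error 0.08, edgeR adjusted p = 0.841). Slc25a15 had 3.17, 3.95 and 4.40 RPKM, with a log2 fold change of -0.06 (standard error 0.06, edgeR adjusted p = 0.776). Both groups overlapped in both genes.

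Of the members that did not pass the filter, Arg1 had 6 reads over the 11 WT muscles, at 0 or 1 in each, and 28 over the 11 libraries labelled KO, at 0 to 7 with a median of 2. The groups overlapped, and 1 library labelled KO was at 0. With no filter the log2 fold change of Arg1 was 1.96 (standard error 0.56, unadjusted p = 0.00188, edgeR adjusted p = 0.227). The highest, 7 reads, came from mouse 611, whose muscle library had the most reads on genes. That library also had the highest macrophage sum (156 CPM) and the lowest sum of myofibre markers (161867 CPM, against 184109 to 251494 in WT muscles). Its adipocyte markers summed to 515 CPM, against 72.8 to 288 CPM in WT muscles and 101 to 714 CPM in those labelled KO, where 5 of 5 adipocyte markers had a positive log2 fold change (median 0.42), 1 of them at an unadjusted p under 0.05. The 10 hepatocyte markers summed to 0.452 to 6.95 CPM in WT muscles and 0.745 to 12.6 CPM in those labelled KO, and the 7 macrophage markers to 34.02 to 98.9 and 43.9 to 156 CPM. Their part in the Arg1 reads was not tested.

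Cps1 had 9 reads in WT muscles and 9 in those labelled KO, Otc had 2 and 5, Nags had 2 and 6, and Slc25a13 had 104 and 110. Of the 110, 39 came from mouse 611, the library with the marker sums given above. Their part in the Slc25a13 reads was not tested.

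Whether the difference between labelled KO and WT differed between liver and muscle was tested by the interaction over all 44 libraries. The muscle side of it rests on labels that the Slc16a13 reads do not bear out. By edgeR 0 of 8 members passed, 2 of 8 had an unadjusted p under 0.05, and DESeq2 and limma-voom called 0, with 2 and 1 at an unadjusted p. Over all 14739 genes, 0.00678% were called and 16.2% had an unadjusted p under 0.05. The 2 members were Arg1, at a log2 difference of -1.88 (standard error 0.42, edgeR adjusted p = 0.196), where liver minus muscle is counted, and Ass1, at 0.46 (standard error 0.20, edgeR adjusted p = 0.280). The value of Arg1 rests on 6 and 28 muscle reads.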

How the data were processed

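The authors deposited raw read counts and RPKM values for 38202 genes in 44 libraries of 85 bp single-end reads. Aligner, counting program, build and annotation are not given in the sources used here. Reads and RPKM did not imply 1 fixed gene length, so the median implied length was used. Symbols came from a table of gene identifiers.

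Counts were fitted in R 4.3.3 with edgeR 4.0.16 (TMM, filterByExpr, quasi-likelihood F-test, Benjamini-Hochberg over all genes, threshold 0.05), within tissue or over all 44 libraries for the interaction. CPM values are TMM-scaled. 95% intervals of log2 fold changes are 1.96 standard errors. Intervals of read ratios are exact binomial. DESeq2 1.42.0, limma 3.58.1 and sva 3.50.0 served as alternatives. The fits were tested on simulated data. The 22 mice gave both tissues, and animal numbers paired them. The mean correlation of deviations was 0.07 within a mouse (-0.02 to 0.17) and -0.01 between mice of a genotype (-0.19 to 0.18). These ranges overlap, so the pairing rests on the animal numbers. In each group 0 pairs of libraries were identical (chi-square per gene at least 4.47). Groups were taken from the labels, which give each library its own mouse.

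Members and gene lists were chosen with earlier results of these data known. Named genes are the members, 3 paralogues, in each list the 3 smallest p in liver and the 2 largest differences between tissues, and the 2 genes nearest each member over WT livers. Correlations between members, the sum of Ass1 and Gm5424 and list counts without the 4 KO livers were added after seeing the data. Other scalings and filters, a gene length offset, a surrogate variable, quality weights, a hepatocyte marker covariate, RPKM with limma, left-out libraries and the animal as block were tried as alternatives.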

Additional observations from a re-analysis of the deposited data

How the results depend on the processing

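Under the alternatives run, no member gained or lost a call, with 1 exception: at a minimum of 10 reads in every library only 2 members could be tested between the WT tissues, and both were called, in place of 8 of 8. Over all genes in liver, 3 were called, 1 with that minimum and 6 by DESeq2. In muscle 1 was called, and 0 without a filter, with that minimum, by limma-voom, with sample quality weights and from the RPKM table with either pseudocount (0.1 or 1). For the interaction 1 was called, 3 with total count scaling (which put the median of all genes at -0.11), 0 with that minimum and 44 by DESeq2, 13 higher and 31 lower. The cause was not tested. Without the 4 KO livers with few reads on long genes, the genes at an unadjusted p under 0.05 went from 5 to 0 for amino acid catabolism, from 5 to 0 for macrophage markers and from 4 to 0 for hepatocyte markers, while over all genes they went from 1272 higher and 403 lower of 13005 to 179 higher and 212 lower of 13210. Leaving out each mouse in turn left 3 to 3 genes called in liver, 1 to 1 in muscle and 0 to 0 members in either tissue, with up to 3 members at an unadjusted p under 0.05 in liver. Cps1 then ranged from -0.17 to -0.03 (without mouse 532).

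Signs in liver were less stable. Over 12 other settings the log2 fold change of Cps1 ranged from -0.22 to 0.10 and turned in 4, that of Arg1 from -0.01 to 0.08 and turned in 4, that of Slc25a13 from -0.14 to 0.03 and turned in 3, and those of Asl and Nags turned in 2 each. Otc, Ass1 and Slc25a15 kept their sign, and the lowest adjusted p of any member was 0.315 (Slc25a15, RPKM table). With the animal as replicate block, 8 members were called between the WT tissues and 0 in the interaction, where Arg1 was at -1.87 (adjusted p = 0.321 by edgeR), and the pairing changed no call. Counts of at most 15 reads limit Cps1, Otc, Arg1, Nags and Slc25a13 in WT muscle.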

Other observations

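Of the 7 purine nucleotide cycle genes measured, a cycle through which muscle releases ammonia from AMP, 5 were lower in WT liver than in WT muscle and 2 were higher by edgeR, where 45.5% of all genes tested were called lower and 45.5% higher, so the number called is near the background. Ampd1, the muscle AMP deaminase, had a log2 fold change of -14.26 (standard error 0.25, edgeR adjusted p = 4.9e-26) and Adssl1, the muscle adenylosuccinate synthase, one of -5.72 (standard error 0.06, edgeR adjusted p = 1.03e-30). Ampd2 (2.56) and Adss (1.71) were higher in liver. Of 6 channels and transporters of urea and glycerol, 3 passed the filter on low counts. Aqp9, a hepatocyte channel, at 11.97 and Aqp8 at 9.70 were higher in liver. Aqp7, the channel of fat and muscle, was lower at -5.64. Aqp8 and Aqp9 passed the filter only through liver, and Aqp7 and Ampd1 only through muscle. Such genes had to differ, and their values are given as a description.

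Between KO and WT livers 0 of the 6 purine nucleotide cycle genes tested and 0 of the 2 channels were called by edgeR, DESeq2 or limma-voom, with 0 and 0 at an unadjusted p under 0.05 by edgeR. Ampd2 (-0.14), Adss (0.10) and Adssl1 (0.11) came nearest, and limma-voom gave 1 of the 6 an unadjusted p under 0.05. Zonation markers, which place cells along the portal axis, were likewise not called: 0 of 7 periportal and 0 of 7 pericentral genes, with 1 of the pericentral genes, Cyp1a2, at an unadjusted p under 0.05 (log2 fold change 0.62, and 0.78 without the 4 livers with few reads on long genes).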
